A study of Mus musculus with 8 samples.

Results

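The lung epithelium is laid out and matured by a small group of transcription factors, and 10 of them are described here from bulk RNA-seq of mouse lung: *Nkx2-1*, *Foxa1*, *Foxa2*, *Gata6*, *Cebpa*, *Sox2*, *Elf5*, *Sox9*, *Etv5* and *Id2*. They were chosen by name, and all 10 were found among the 25965 genes of the deposited table. NKX2-1, with FOXA1, FOXA2 and GATA6, marks the lung endoderm from its specification onwards and later drives surfactant and secretory genes. SOX2 marks the proximal, airway-forming epithelium, whereas SOX9, ID2 and ETV5 mark the distal tips of the branching lung, where FGF signalling keeps progenitors before they turn into alveolar cells, and ELF5 is another factor of that distal epithelium. CEBPA belongs to the late steps in which alveolar type II cells begin to make surfactant.

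Lungs of *Wfdc2* +/+ mice were compared with those of *Wfdc2* GFP/GFP mice at the embryonic stage E18.5, just before birth, and at the postnatal stage P1.5, with 2 libraries in each of the 4 groups. In *Wfdc2* GFP/GFP mice both alleles of *Wfdc2*, which encodes a secreted protease inhibitor of the airway, carry an IRES-GFP cassette in place of part of the gene, made in TT2 embryonic stem cells. The knock-in is constitutive, its selection cassette was removed with CAG-Cre, and the labels name no other allele, driver or treatment. The RNA came from whole lung, so each value mixes epithelial, mesenchymal, vascular and blood cells, and in such bulk samples fewer cells of a type and less RNA per cell cannot be told apart.

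Values are log2 RPKM, the base-2 logarithm of the reads on a gene divided by its span in kilobases and by the total reads of its library. Between 19457647 and 37209333 reads stood behind each library, and 3 reads, taken as the limit of detection, correspond to 0.0806 to 0.154 RPM (the same unit without the kilobases). The 10 factors were read well above that limit, from 33 reads for *Sox2* in P1.5 *Wfdc2* GFP/GFP replicate 1 to 12630 for *Nkx2-1* in E18.5 *Wfdc2* GFP/GFP replicate 1. The labels held for the targeted gene, since reads on *Wfdc2* numbered 8038 to 32845 in wild-type lungs but 0 to 12 in knock-in lungs.

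The libraries did not fall cleanly into their groups, and this bears on every value below. P1.5 *Wfdc2* +/+ replicate 2 differed from E18.5 *Wfdc2* GFP/GFP replicate 2 by 0.817 (root mean square of the log2 differences over 15627 genes) and from the E18.5 *Wfdc2* +/+ libraries by 0.924 and 0.860, but from its own partner, P1.5 *Wfdc2* +/+ replicate 1, by 1.29. Its mesenchyme markers (8 genes, led by *Vim*) summed to 514 RPKM, as against 407 to 496 in the 4 E18.5 libraries and 155, 167 and 199 in the other P1.5 libraries. Its pan-epithelial markers (10 genes such as *Epcam*, *Cdh1* and *Krt8*) summed to 270 RPKM, as against 204 to 394 at E18.5 and 900, 830 and 678 in the other P1.5 libraries. Its leukocyte markers (9 genes, led by *S100a8*) were nevertheless on the side of P1.5, at 296 RPKM against 29.7 to 49.1 at E18.5 and 464 to 1073 in the other P1.5 libraries. For several of the factors and lists the stage differences are therefore also given without this library. E18.5 *Wfdc2* GFP/GFP replicate 1 also stood apart, at 0.995 from its partner and 0.893 from E18.5 *Wfdc2* +/+ replicate 1. Its alveolar type II genes summed to 2339 RPKM, as against 5058 to 6479 in the other E18.5 libraries, its airway secretory genes to 213 as against 670 to 847, and its cell cycle markers to 108 as against 54.8 to 66.6. It held the highest values of *Sox9*, *Etv5*, *Gata6* and *Elf5*. In each group replicate 1 came from a female and replicate 2 from a male, as the reads on *Xist* (4121 to 90980 against 1 to 13) and *Ddx3y* (0 to 3 against 972 to 2175) show, so sex was balanced between the groups.

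**Figure D1:**
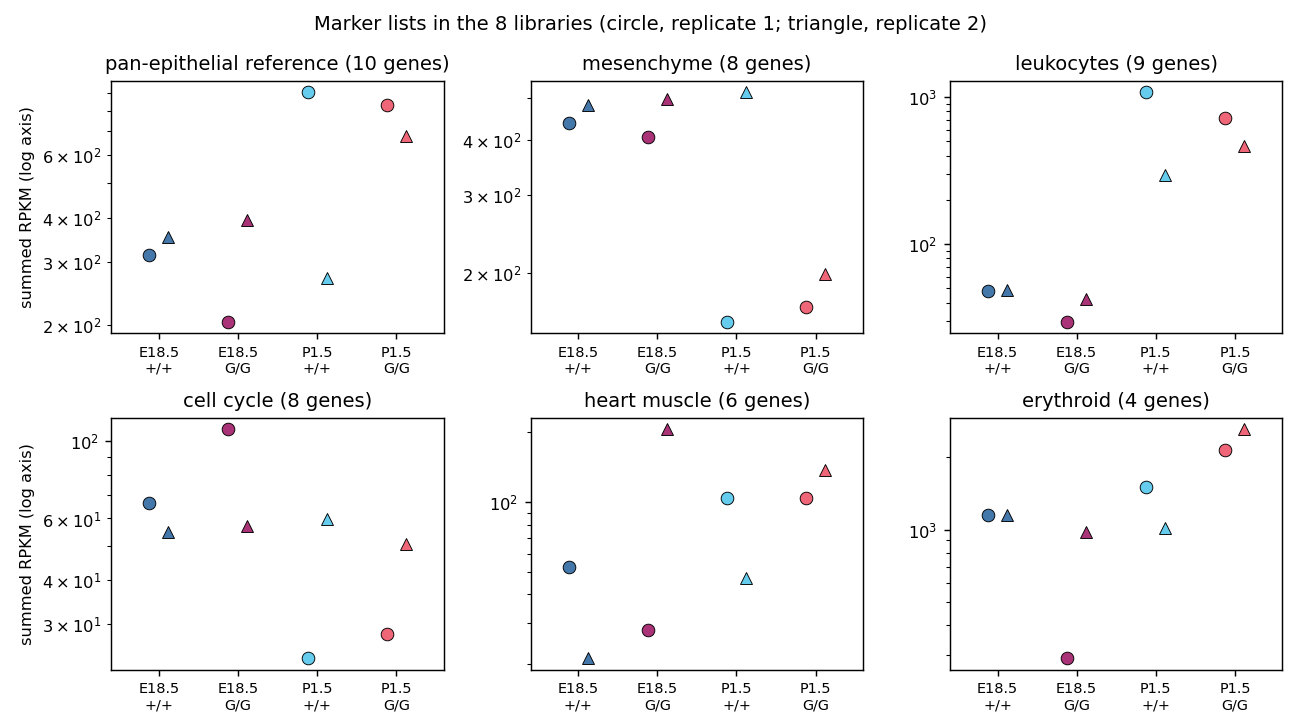
Summed RPKM (log axis) of the markers of 6 tissues or cell states in each library, with the 4 groups of stage and genotype along the horizontal axis (G/G, GFP/GFP). P1.5 *Wfdc2* +/+ replicate 2 (light blue triangle) lies with the E18.5 libraries for mesenchyme (514 RPKM) and pan-epithelial markers (270 RPKM).

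The factors differed widely in abundance. Per kilobase of exon, the mean over the 8 libraries was highest for *Nkx2-1* (85.5 RPKM), *Id2* (65.2) and *Cebpa* (52.6), followed by *Etv5* (33.5), *Foxa2* (17.1), *Elf5* (11.3), *Foxa1* (9.76), *Gata6* (6.32), *Sox2* (3.32) and *Sox9* (2.80). Among neighbours in this order, *Foxa1* lay above *Gata6* in 8 of 8 libraries, by 0.59 ± 0.27 on the log2 scale (SD, n = 8), and *Gata6* above *Sox2* in 8 of 8, by 1.04 ± 0.51. The other 7 neighbouring pairs changed places in at least 1 library, and *Elf5* was above *Foxa1* in 4 of 8. The order depends on the length used, because *Gata6*, *Elf5* and *Etv5* have long introns: per kilobase of the whole span, which is the length in the deposited values, *Etv5* averaged 2.35 RPKM and *Gata6* 1.22. Spans are used from here on, since a comparison of a gene with itself does not depend on its length.

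**Figure D2:**
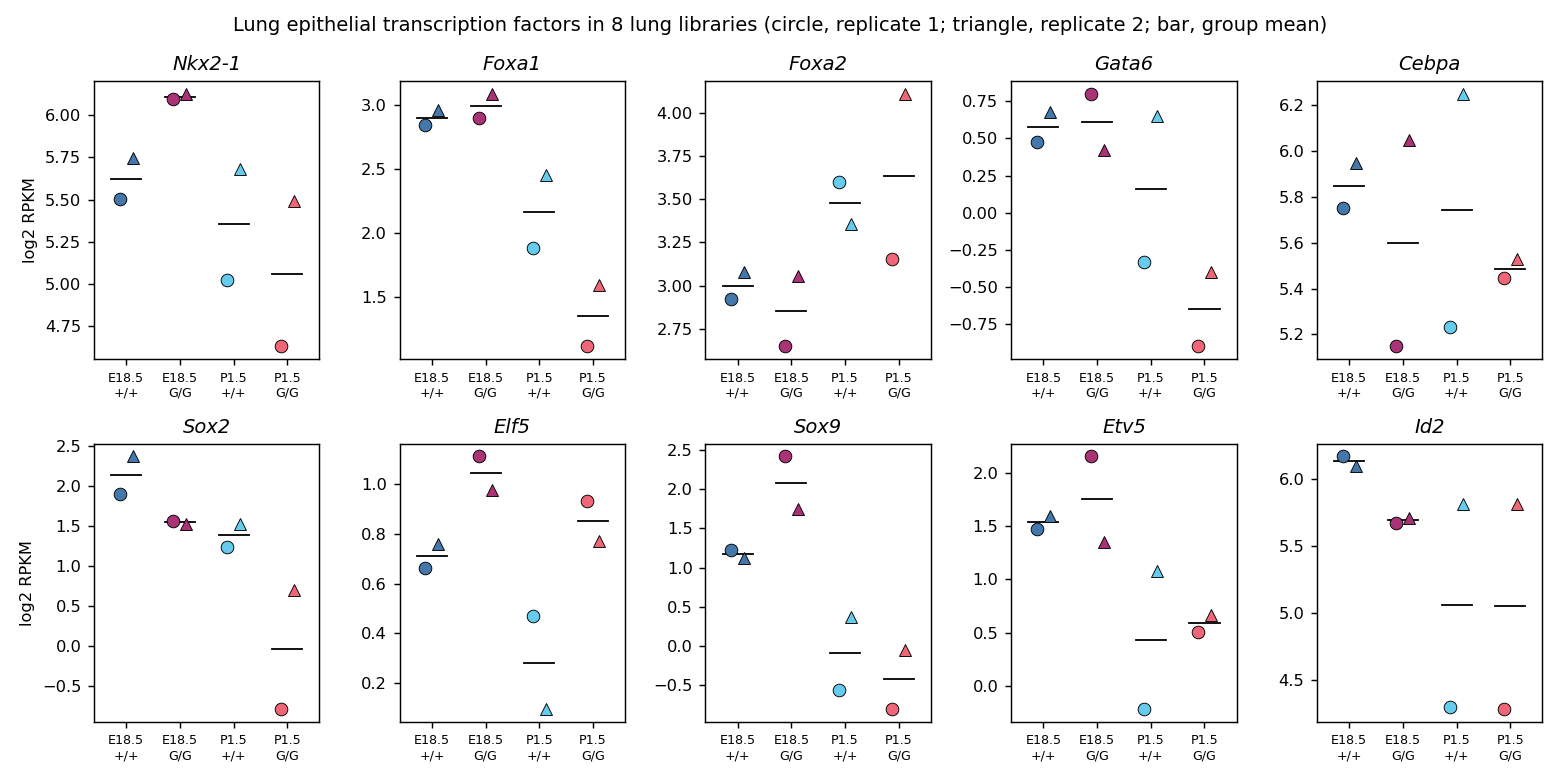
Log2 RPKM of the 10 factors in the 8 libraries, with replicate 1 as circles, replicate 2 as triangles and group means as bars (G/G, GFP/GFP). *Foxa1*, *Sox9* and *Etv5* lie lower in all 4 P1.5 libraries than in any E18.5 library, and *Foxa2* lies higher.

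Between E18.5 and P1.5, averaged over the genotypes, the mean of 9 of the 10 factors was lower at P1.5, and *Foxa2* was the exception, while the means of *Elf5* (0.16) and *Cebpa* (0.36) turned higher once each library was centred on its median gene. *Sox9* and *Foxa1* fell past the threshold (limma, adjusted p under 0.05), so 2 of 10 were called lower, where 2.56% of all genes tested were called lower and 5.14% in either direction. The median log2 difference of the 10 was -0.85, beside a median of -0.32 over all genes, and the levels below are to be read against that general shift. Groups that did not overlap tell the same order: all 4 P1.5 libraries lay below all 4 E18.5 libraries for *Foxa1*, *Sox9* and *Etv5*, as for 13.7% of all genes, and above them for *Foxa2*, as for 7.28% of all genes.

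*Foxa1* and *Foxa2* encode paralogous forkhead proteins that open chromatin in endoderm and can stand in for each other in branching lung, and their stage differences had opposite signs. *Foxa1* (chr12:57540631-57546121, minus strand, mm10) read 2.84 and 2.96 in E18.5 *Wfdc2* +/+, 2.90 and 3.09 in E18.5 *Wfdc2* GFP/GFP, 1.88 and 2.45 in P1.5 *Wfdc2* +/+, and 1.11 and 1.59 in P1.5 *Wfdc2* GFP/GFP. Every P1.5 library was thus below every E18.5 library, and the P1.5 *Wfdc2* GFP/GFP pair was lowest. Averaged over genotypes *Foxa1* changed by -1.19 (SE 0.23; limma, adjusted p = 0.0380), a 2.28-fold fall. With each library centred on its median gene the difference was -0.72 and no longer called (limma, adjusted p = 0.0519), whereas that of *Sox9*, at -1.43, still was (limma, adjusted p = 0.0191). *Foxa2* (chr2:148042877-148046969, minus strand) read 2.92 and 3.08 in E18.5 *Wfdc2* +/+, 2.65 and 3.06 in E18.5 *Wfdc2* GFP/GFP, 3.60 and 3.36 in P1.5 *Wfdc2* +/+, and 3.15 and 4.11 in P1.5 *Wfdc2* GFP/GFP. The P1.5 libraries lay above the E18.5 libraries without overlap, and the difference of 0.63 (SE 0.26) did not pass the adjusted test over all genes (limma, adjusted p = 0.121).

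Within each library the pair could be compared free of library scaling. At E18.5 *Foxa2* exceeded *Foxa1* by 0.08 and 0.11 on the log2 scale in *Wfdc2* +/+ and by -0.26 and -0.03 in *Wfdc2* GFP/GFP, so the spans of both genes carried about the same read density. At P1.5 the excess was 1.72 and 0.90 in wild-type lungs, against 2.04 and 2.52 in knock-in lungs, which is 1.87 to 5.73 times as much *Foxa2* as *Foxa1*. The mean excess was 1.82 higher at P1.5 than at E18.5 (2.12 without P1.5 *Wfdc2* +/+ replicate 2). In *Wfdc2* GFP/GFP it differed from the wild type by -0.24 at E18.5 and by 0.97 at P1.5. This comparison, like that of *Sox2* with *Sox9*, was chosen after the values had been seen, so both are given as descriptions with no test.

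**Figure D3:**
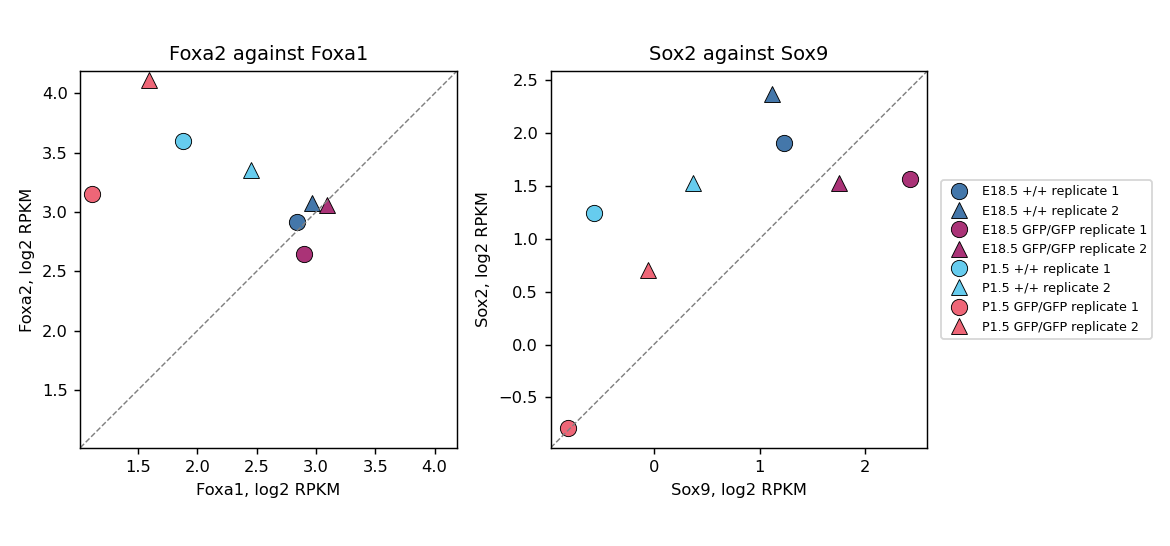
Log2 RPKM of *Foxa2* against *Foxa1* (left) and of *Sox2* against *Sox9* (right), 1 point per library, with the dashed line marking equal values. The E18.5 libraries lie within 0.26 of the line for the *Foxa* pair and the P1.5 libraries lie 0.90 to 2.52 above it, and for the *Sox* pair the 2 E18.5 *Wfdc2* GFP/GFP libraries lie below the line; the place of the line depends on the gene lengths used, here whole spans.

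The RefSeq sequences upstream of the pair (GRCm38.p6) are shown because *Foxa1* and *Foxa2* are the paralogues whose stage differences had opposite signs. Each is 250 bases long, ends at the base before a transcription start and is written 5′ to 3′ on the strand of the gene, which is the minus strand for *Foxa1* (chr12:57546112-57546361) and for the outermost of 3 starts of *Foxa2* (chr2:148046970-148047219). Capitals mark letters matching, on either strand, the forkhead motif TGTTTAC, the SOX motif ACAAAG, the NKX2-1 motif CTCAAG, the GATA motif AGATAA or the ETS motif CCGGAAGT.
Foxa1: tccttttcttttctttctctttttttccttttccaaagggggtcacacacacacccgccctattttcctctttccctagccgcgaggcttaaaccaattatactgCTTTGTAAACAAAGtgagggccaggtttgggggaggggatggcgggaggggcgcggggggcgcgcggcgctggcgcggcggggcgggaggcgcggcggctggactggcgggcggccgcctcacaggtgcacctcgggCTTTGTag
Foxa2: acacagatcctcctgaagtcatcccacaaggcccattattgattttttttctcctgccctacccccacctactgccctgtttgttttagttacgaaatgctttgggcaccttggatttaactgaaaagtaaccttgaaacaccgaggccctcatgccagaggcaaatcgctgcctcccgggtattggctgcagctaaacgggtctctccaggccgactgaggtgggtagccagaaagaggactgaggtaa

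The *Foxa1* window holds a forkhead match from -141 to -135, flanked and overlapped by SOX matches from -145 to -140 and from -137 to -132, and another SOX match from -8 to -3. The windows of the outermost and the second start of *Foxa2* hold none of the 5 motifs. The third, inside the *Foxa2* gene, holds an NKX2-1 match from -187 to -182 that overlaps a GATA match from -183 to -178, and a SOX match from -171 to -166. A window of *Etv5* holds a forkhead match from -183 to -177. Of 32851 upstream windows of this length, 3.17% hold the forkhead letters, 16.5% SOX, 13.3% NKX2-1, 9.99% GATA and 2.88% ETS. Over the 8 factors with a window, 2 hold forkhead, 3 SOX, 1 NKX2-1, 1 GATA and 0 ETS letters in at least 1 of their 12 windows. These matches are descriptions of letters, and binding was not measured here.

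*Sox9* and *Etv5*, factors of the distal tip, were both lower at P1.5. *Sox9* (chr11:112782224-112787760, plus strand), which is needed for branching and is also expressed in tracheal cartilage, read 1.23 and 1.12 in E18.5 *Wfdc2* +/+, 2.42 and 1.75 in E18.5 *Wfdc2* GFP/GFP, -0.57 and 0.37 in P1.5 *Wfdc2* +/+, and -0.81 and -0.05 in P1.5 *Wfdc2* GFP/GFP. The stages did not overlap, and the E18.5 *Wfdc2* GFP/GFP pair was highest. Averaged over genotypes it changed by -1.90 (SE 0.32; limma, adjusted p = 0.0289), a 3.72-fold fall and the largest of the 10. The cartilage markers (6 genes, led by *Col11a2* and *Col2a1*) summed to 0.120 to 0.842 RPKM over the 8 libraries and were highest, at 0.842, in E18.5 *Wfdc2* GFP/GFP replicate 1, the library where *Sox9* also peaked. The next highest sum, 0.761, was in P1.5 *Wfdc2* +/+ replicate 1, where *Sox9* was among its lowest values. The part of cartilage in *Sox9* was not tested.

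*Etv5* (chr16:22381309-22439719, minus strand), an ETS factor switched on by FGF signalling, read 1.48 and 1.60 in E18.5 *Wfdc2* +/+, 2.16 and 1.35 in E18.5 *Wfdc2* GFP/GFP, -0.22 and 1.08 in P1.5 *Wfdc2* +/+, and 0.51 and 0.66 in P1.5 *Wfdc2* GFP/GFP. All P1.5 libraries were below all E18.5 libraries, although P1.5 *Wfdc2* +/+ replicate 2 (1.08) came close to the lowest of them (1.35). The difference averaged over genotypes was -1.14 (SE 0.34; limma, adjusted p = 0.0641), short of the threshold. For this gene on its own the exact permutation p was 0.0286, the smallest possible. *Foxa1*, *Foxa2* and *Sox9* had the same exact permutation p. *Id2* (chr12:25093801-25096092, minus strand), an inhibitor of basic helix-loop-helix proteins that marks tip progenitors, read 6.17 and 6.10 in E18.5 *Wfdc2* +/+, 5.67 and 5.71 in E18.5 *Wfdc2* GFP/GFP, 4.30 and 5.81 in P1.5 *Wfdc2* +/+, and 4.28 and 5.82 in P1.5 *Wfdc2* GFP/GFP. The P1.5 groups were alike in that replicate 1 was low and replicate 2 was inside the E18.5 range, so the stages overlapped (-0.86, SE 0.43; limma, adjusted p = 0.172). *Elf5* (chr2:103411688-103450989, plus strand) varied least of the 4 distal factors, with its lowest value (0.09) in P1.5 *Wfdc2* +/+ replicate 2 and its highest (1.11) in E18.5 *Wfdc2* GFP/GFP replicate 1, and its difference was -0.31 (SE 0.21; limma, adjusted p = 0.279).

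*Nkx2-1*, *Gata6* and *Cebpa* did not pass the test between stages. *Nkx2-1* (chr12:56531935-56536908, minus strand), the lineage factor of lung and thyroid, read 5.50 and 5.75 in E18.5 *Wfdc2* +/+, 6.09 and 6.13 in E18.5 *Wfdc2* GFP/GFP, 5.03 and 5.68 in P1.5 *Wfdc2* +/+, and 4.63 and 5.49 in P1.5 *Wfdc2* GFP/GFP. Its ranges at the 2 stages met only through P1.5 *Wfdc2* +/+ replicate 2, and the difference was -0.66 (SE 0.28; limma, adjusted p = 0.120). The thyroid markers (4 genes, led by *Slc5a5*) summed to at most 0.0530 RPKM in any library. *Gata6* (chr18:11052510-11085635, plus strand), a zinc-finger factor of endoderm that is also active in mesenchyme and heart, read 0.47 and 0.68 in E18.5 *Wfdc2* +/+, 0.80 and 0.42 in E18.5 *Wfdc2* GFP/GFP, -0.33 and 0.65 in P1.5 *Wfdc2* +/+, and -0.90 and -0.40 in P1.5 *Wfdc2* GFP/GFP. It too was lower in every P1.5 library but *Wfdc2* +/+ replicate 2 (-0.84, SE 0.30; limma, adjusted p = 0.0854). *Cebpa* (chr7:35119293-35121926, plus strand) was between 5.15 and 6.25 in all libraries, with the extremes in E18.5 *Wfdc2* GFP/GFP replicate 1 and P1.5 *Wfdc2* +/+ replicate 2, and its difference of -0.11 (SE 0.31) had a 95% interval from -0.83 to 0.61.

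*Sox2* (chr3:34650005-34652461, plus strand), the airway factor, read 1.90 and 2.37 in E18.5 *Wfdc2* +/+, 1.57 and 1.53 in E18.5 *Wfdc2* GFP/GFP, 1.24 and 1.53 in P1.5 *Wfdc2* +/+, and -0.79 and 0.70 in P1.5 *Wfdc2* GFP/GFP. The stages overlapped by less than 0.01, through E18.5 *Wfdc2* GFP/GFP replicate 2 and P1.5 *Wfdc2* +/+ replicate 2, and the difference was -1.17 (SE 0.34; limma, adjusted p = 0.0637). *Sox2* lies inside *Sox2ot* on the same strand, so reads on *Sox2* count for both. The 578182 bases of *Sox2ot* held only 4 to 59 reads beyond those on *Sox2*, on which 78.4% to 95.2% of them lay. Within a library *Sox2* exceeded *Sox9* by 0.67 and 1.25 in E18.5 *Wfdc2* +/+, -0.86 and -0.22 in E18.5 *Wfdc2* GFP/GFP, 1.81 and 1.16 in P1.5 *Wfdc2* +/+, and 0.03 and 0.76 in P1.5 *Wfdc2* GFP/GFP. Which of the pair is higher depends on the length used, and per kilobase of exon *Sox2* was above *Sox9* in 5 of 8 libraries, whereas differences between libraries do not depend on it. The excess was lower in *Wfdc2* GFP/GFP at each stage with no overlap within E18.5 or within P1.5, and by 1.30 on average over 4 against 4 libraries. Between stages it differed by 0.73.

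**Figure D4:**
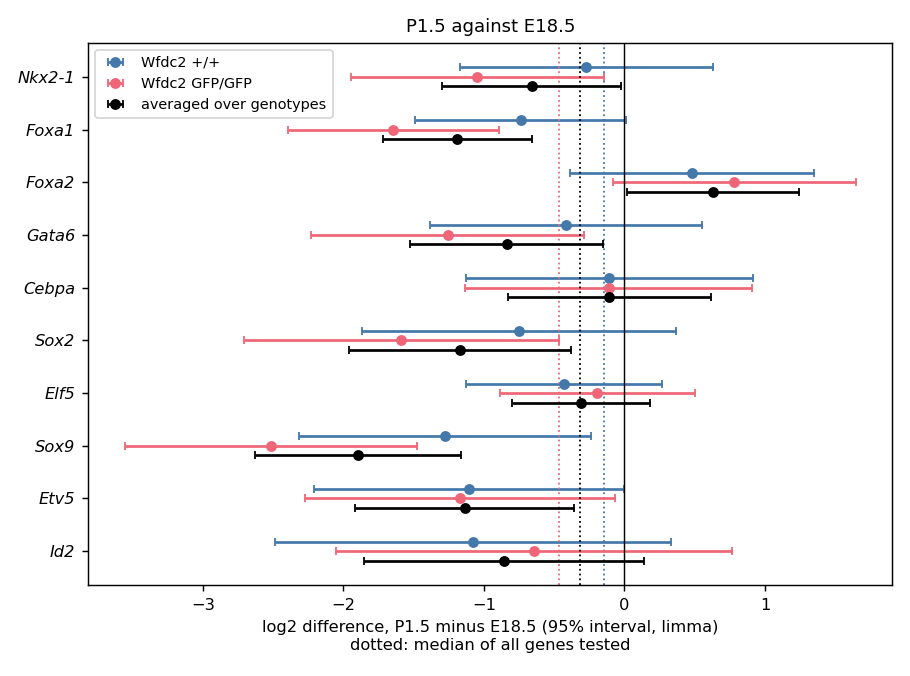
Log2 difference between P1.5 and E18.5 for each factor, with 95% intervals from limma, in *Wfdc2* +/+ (blue), *Wfdc2* GFP/GFP (red) and averaged over genotypes (black); dotted lines mark the median of all genes in the same colours. *Sox9* and *Foxa1* lie furthest to the left relative to their intervals, at -1.90 and -1.19 averaged over genotypes, and *Foxa2* is the only factor right of 0, at 0.63.

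The stage difference was then read within each genotype, where the *Wfdc2* GFP/GFP libraries carried the calls. In *Wfdc2* GFP/GFP *Sox9* changed by -2.52 (SE 0.45; limma, adjusted p = 0.0390) and *Foxa1* by -1.64 (SE 0.32; limma, adjusted p = 0.0432), so 2 of 10 were called lower beside 2.94% of all genes called lower and 4.55% in either direction. Both calls were lost by voom on the recovered reads (adjusted p = 0.0518 for *Sox9* and 0.0523 for *Foxa1*) and with the replicate number as a block (limma, adjusted p = 0.0608 and 0.0561). The P1.5 pair lay below the E18.5 pair for 7 of the 10 factors, as for 48.5% of all genes. In *Wfdc2* +/+ none of the 10 passed in limma, where 0.0576% of all genes did, and voom called 0 of all genes. *Sox9* at -1.28 (SE 0.45) and *Etv5* at -1.11 (SE 0.48) were under an unadjusted limma p of 0.05, as were 11.8% of all genes. Here the P1.5 pair lay below the E18.5 pair for 6 of 10, as for 28.2% of all genes. A call in the knock-in and not in the wild type does not show that the stage effect differed. The interaction of genotype and stage passed for 0 of 10 factors and for 0% of all genes (limma), and voom called 0 of all genes. An unadjusted limma p under 0.05 was reached by 0 of 10, where 10.2% of all genes reached it.

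P1.5 *Wfdc2* +/+ replicate 2 had a large part in these numbers. Without it, with the remaining P1.5 *Wfdc2* +/+ library assumed to vary like the other groups, 7 of 10 factors were called lower averaged over genotypes, but so were 35% of all genes. The 7 were *Sox9* (-2.13), *Etv5* (-1.46), *Foxa1* (-1.33), *Sox2* (-1.24), *Id2* (-1.24), *Gata6* (-1.08) and *Nkx2-1* (-0.82), with limma adjusted p-values from 0.00548 to 0.0444. In *Wfdc2* +/+ alone *Etv5* (-1.76; limma, adjusted p = 0.0364) and *Sox9* (-1.74; limma, adjusted p = 0.0468) were then called, beside 10.3% of all genes called lower. Without P1.5 *Wfdc2* +/+ replicate 1 the differences were -0.46 for *Etv5* and -0.81 for *Sox9* and neither was called. *Foxa2* stayed on the other side of 0, at 0.69 (SE 0.28; limma, adjusted p = 0.0852), and over all libraries left out in turn it ran from 0.39, without P1.5 *Wfdc2* GFP/GFP replicate 2, to 0.87, without P1.5 *Wfdc2* GFP/GFP replicate 1. In the opposite direction, no factor was called averaged over genotypes when any of 5 other libraries was left out, in fits that called 0.179% to 0.454% of all genes. These were both E18.5 *Wfdc2* +/+ libraries, E18.5 *Wfdc2* GFP/GFP replicate 1 and both P1.5 *Wfdc2* GFP/GFP libraries, for which *Sox9* ran from -2.09 to -1.71 (limma, adjusted p from 0.0756 to 0.127) and *Foxa1* from -1.31 to -1.07 (0.0976 to 0.158).

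Markers of other cells and states also differed between stages, and their part in the factors' values was not tested. Of 8 leukocyte markers tested 4 were called higher at P1.5, beside 2.58% of all genes called higher, with *S100a9* at 4.23 (SE 0.36; limma, adjusted p = 0.00616), *S100a8* at 4.05 (SE 0.46; limma, adjusted p = 0.0109) and *Cd79a* of B cells at 4.04 (SE 0.51; limma, adjusted p = 0.0144). The mean log2 RPKM of the pan-epithelial markers was 4.02, 4.18, 3.75 and 4.27 at E18.5 and 4.81, 3.73, 5.05 and 5.0 at P1.5 (*Wfdc2* +/+ replicates first), a difference of 0.60 with an exact permutation p of 0.143. *Cldn4*, a tight junction gene, was the 1 of 10 called, beside 2.58% of all genes called higher. It differed by 1.68 (SE 0.36) with a limma adjusted p of 0.0435, from 0.16 in *Wfdc2* +/+ and 3.19 in *Wfdc2* GFP/GFP. Expressed relative to these markers within each library, *Sox9* differed between stages by -2.49, *Foxa1* by -1.79 and *Elf5* by -0.91, each lower without overlap (exact permutation p = 0.0286, the smallest possible), as were 3.97% of all genes on this scale. *Sox2* differed by -1.77 and *Etv5* by -1.73 (exact permutation p = 0.0571), and *Foxa2* by 0.03 (exact permutation p = 0.914). Without P1.5 *Wfdc2* +/+ replicate 2 the mean of the epithelial markers differed by 0.90. This mean was higher in the other P1.5 libraries than in any at E18.5. Single markers did not all follow it: their median difference was 1.20, but *Cdh1* was at -1.04 and *Esrp1* at -0.49. On the relative scale 9 of 10 factors then lay lower without overlap, but so did 70% of all genes, and *Foxa2* was at -0.21. This scale lowers the stage difference of every gene by the same amount, 0.60 over all libraries and 0.90 without P1.5 *Wfdc2* +/+ replicate 2. For *Foxa2* the mean hides opposite libraries: its value relative to the markers was -1.21 to -1.10 at E18.5, but -1.21 and -0.37 in P1.5 *Wfdc2* +/+ and -1.90 and -0.89 in P1.5 *Wfdc2* GFP/GFP. Cell cycle markers (8 genes, led by *Pcna* and *Mki67*) summed to 54.8 to 108 RPKM at E18.5 and to 24.0, 60.0, 28.2 and 50.8 at P1.5, the higher P1.5 values being those of the replicate 2 libraries. *Pcna*, which led the sum, was at -0.21 between stages (SE 0.31). By gene 8 of 8 had a lower mean at P1.5, with a median of -1.53, beside -0.32 over all genes. Limma called 0 of them, and 6 were lower at an unadjusted p under 0.05, where 26.7% of all genes were. Heart muscle markers (6 genes, led by *Myl7* and *Nppa*) summed to 21.2 to 207 RPKM, and these sums had no order by stage. By gene 4 of 6 had a higher mean at P1.5 and 2 a lower one, with a median of 1.11. Limma called 0 of them, and 3 were higher at an unadjusted p under 0.05, where 1919 of 15627 genes were.

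Between genotypes no factor passed the test at either stage. At E18.5, limma called 0 of 10 beside 0.0192% of all genes. An unadjusted p under 0.05 was reached by 0 of 10, where 4.37% of all genes reached it. At P1.5, limma called 0 of 10 beside 0.0128% of all genes. Here 2 of 10, *Sox2* and *Foxa1*, had an unadjusted p under 0.05, where 10.9% of all genes did. Voom called 0 of all genes at either stage, the targeted *Wfdc2* included, so its 0 adds nothing about the factors. In limma *Wfdc2*, at -13.1 at E18.5 and -12.8 at P1.5, reached adjusted p-values of only 0.0394 and 0.0362. A count of 0 of 10 therefore does not show that the factors were unchanged. The median difference of the 10 factors was 0.06 at E18.5 and -0.27 at P1.5, close to the 0.09 and -0.20 of all genes. With 2 libraries a group the intervals are wide, so for *Nkx2-1* at P1.5, for example, the 95% interval of the difference ran from -1.19 to 0.61.

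The values nearest to a difference were as follows. *Sox2* was lower in *Wfdc2* GFP/GFP at P1.5 by 1.43 on the log2 scale (-1.43, SE 0.48; limma, adjusted p = 0.358), with both knock-in libraries below both wild-type libraries, and at E18.5 the difference was -0.59 (SE 0.48; limma, adjusted p = 0.99975), again without overlap. Of the 10 factors *Sox2* alone was lower without overlap at both stages, as were 1.71% of all genes. *Foxa1* at P1.5 was at -0.81 (SE 0.32; limma, adjusted p = 0.428) and *Gata6* at -0.81 (SE 0.42; limma, adjusted p = 0.533), both without overlap. Non-overlap with lower values was found for 3 of 10 factors at P1.5, beside 26.9% of all genes, and with higher values for 1 of 10, *Elf5* (0.57, SE 0.30; limma, adjusted p = 0.540), beside 12.6%. Without P1.5 *Wfdc2* +/+ replicate 2 the P1.5 difference was -1.28 for *Sox2*, -0.53 for *Foxa1*, -0.31 for *Gata6* and 0.39 for *Elf5*. For *Sox2* other libraries weighed more: its P1.5 difference was -0.68 without *Wfdc2* GFP/GFP replicate 1 and -2.17 without *Wfdc2* GFP/GFP replicate 2, and its E18.5 difference was -0.35 without *Wfdc2* +/+ replicate 2. At E18.5, *Nkx2-1* (0.48, SE 0.39), *Elf5* (0.33, SE 0.30) and *Sox9* (0.91, SE 0.45, but 0.57 without *Wfdc2* GFP/GFP replicate 1) were higher without overlap in *Wfdc2* GFP/GFP, 3 of 10 beside 26.5% of all genes, and *Sox2* and *Id2* (-0.44, SE 0.61) lower, 2 of 10 beside 9.46%. *Elf5* was the only factor higher in the knock-in without overlap at both stages, as were 2.13% of all genes, but relative to the pan-epithelial markers its P1.5 difference was -0.19. The genotype and stage comparisons share their libraries, so a low P1.5 *Wfdc2* GFP/GFP value such as that of *Sox2* or *Foxa1* enters both.

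**Figure D5:**
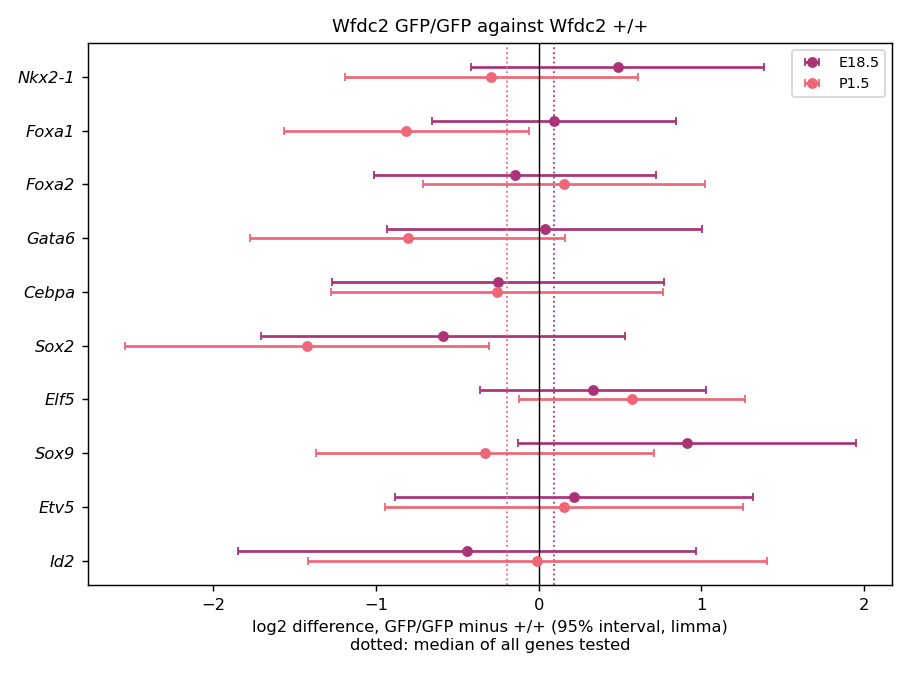
Log2 difference between *Wfdc2* GFP/GFP and *Wfdc2* +/+ for each factor at E18.5 (purple) and P1.5 (red), with 95% intervals from limma and dotted lines at the median of all genes. The intervals include 0 except those of *Sox2* (-1.43) and *Foxa1* (-0.81) at P1.5, which did not pass the adjusted test.

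Other genes of the same programmes were read from lists chosen for the roles of the 10 factors. Of 41 further epithelial transcription factors listed 37 were tested, of which 2 were called higher and 2 lower at P1.5 averaged over genotypes, beside 2.58% of all genes called higher and 2.56% lower. Their median was -0.40, beside -0.32 over all genes. *Klf5* (-2.25, SE 0.48; limma, adjusted p = 0.0441) and *Grhl2* (-1.65, SE 0.35; limma, adjusted p = 0.0432), epithelial factors of perinatal maturation and of cell junctions, fell. *Id1* (1.43, SE 0.22; limma, adjusted p = 0.0242) and *Id3* (1.23, SE 0.27; limma, adjusted p = 0.0465), the relatives of *Id2* and targets of BMP signalling, rose, and they were the 2 of 11 genes of the BMP list that were called, both higher (2.58% of all genes). Of the 11, 7 had a lower mean at P1.5, and the median was -0.65. Of 9 distal tip genes tested, 2 were called lower, beside 2.56% of all genes, and 0 higher, and the median was -1.24, beside -0.32. They were *Hmga2* (-1.98, SE 0.41; limma, adjusted p = 0.0420), a chromatin protein of embryonic progenitors, and *Igf2bp1* (-1.31, SE 0.30; limma, adjusted p = 0.0499), an RNA-binding protein of fetal tissue, both close to the threshold. The mesenchyme markers had a lower mean at P1.5 in 8 of 8, with a median of -1.16, and *Pdgfra* was called (-1.57, SE 0.32), beside 2.56% of all genes. Mesenchyme also expresses tip genes such as *Hmga2*, and the part of mesenchyme in these values was not tested.

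Of the 13 genes of the FGF pathway around *Etv5*, 0 were called by limma, and 6 were lower at an unadjusted p under 0.05, where 26.7% of all genes were. Their median was -0.75, beside -0.32 over all genes. The most abundant of them, the feedback inhibitors *Dusp6* (-0.24, SE 0.32) and *Spry1* (-0.01, SE 0.38), were close to 0. Of 11 alveolar type II genes 1 was called, beside 5.14% of all genes in either direction. It was *Sftpd*, a surfactant collectin, which rose by 2.89 on the log2 scale (SE 0.49; limma, adjusted p = 0.0304), from 1.25 in *Wfdc2* +/+ (limma, adjusted p = 0.451) and 4.53 in *Wfdc2* GFP/GFP (limma, adjusted p = 0.0317). *Sftpc*, the gene with the most reads in 7 of 8 libraries, was at 1.75 (limma, adjusted p = 0.0672) and *Abca3* at -0.58 (limma, adjusted p = 0.0838). Of 7 airway secretory genes 2 rose, beside 2.58% of all genes called higher. They were the club cell secretoglobin *Scgb1a1* (4.29, SE 0.76; limma, adjusted p = 0.0330) and *Bpifa1* (4.63, SE 0.60; limma, adjusted p = 0.0149), while *Sox2* was at -1.17. Of 8 alveolar type I genes 0 were called by limma. An unadjusted p under 0.05 was reached by 3 (2 higher, 1 lower), where 39% of all genes reached it. *Ager* and *Clic3* were the most abundant, at 1.59 (SE 0.47; limma, adjusted p = 0.0637) and 0.95 (SE 0.46; limma, adjusted p = 0.162). The averages joined unlike values in other genes too, such as *Klf5* (-0.95 in *Wfdc2* +/+ and -3.56 in *Wfdc2* GFP/GFP) and *Hmga2* (-1 and -2.96). Without P1.5 *Wfdc2* +/+ replicate 2 the genes called on these lists kept their direction. The lists are given with no other library left out. Without the same library the median difference of all genes was -0.48. List medians were -1.52 for distal tip genes, -1.29 for FGF pathway genes, -1.05 for the BMP list and -1.69 for mesenchyme markers. They were -0.46 for the further transcription factors, -0.13 for alveolar type II genes and -0.04 for alveolar type I genes. The airway secretory genes, at 1.85, and the pan-epithelial markers, at 1.20, went the other way. Between genotypes 0 of the 86 genes tested on these lists were called at either stage (limma; voom called 0 of all genes). Of them 2 at E18.5 and 7 at P1.5 had an unadjusted p under 0.05, where 4.37% and 10.9% of all genes did.

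For the 3 factors whose group means ranged most widely, the genes closest in pattern were sought among 7063 genes averaging 1 RPKM or more, as the smallest root mean square difference over the 8 libraries after each gene was centred on its own mean. For *Sox9* these were *Zfp334* (0.252), *Setd5* (0.283), *Cstf2* (0.285), *Hjurp* (0.289) and *Grb10* (0.295), where the median of all genes was 1.03. For *Sox2* they were *Hdhd3* (0.328), *Zfp784* (0.331), *Btg2* (0.338), *9430020K01Rik* (0.339) and *Ttpal* (0.350), with a median of 0.915. For *Foxa1* they were *Slc25a17* (0.140), *Tacc1* (0.146), *Pigh* (0.160), *Tulp3* (0.177) and *Snrk* (0.177), with a median of 0.702. None of the 15 was on the lists of epithelial, mesenchymal or cell cycle genes. Those lists are short beside the 7063 genes compared, so this does not tell what kinds of gene the 15 are.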

How the data were processed

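Total lung RNA of 8 mice was DNase-treated and sequenced from a strand-specific kit on HiSeq2500 or GAIIx, and which library ran on which instrument is not given in the sources used here. The authors trimmed reads (Trim Galore 0.4.0), mapped them to mm10 with TopHat2 2.1.1 and deposited log2 RPKM from SeqMonk, 1 column per library. Tested on the values, kilobases are the whole gene span, genes with no read carry the value of 0.9 of a read, and 99.86% to 99.97% of values fell within 0.02 of whole reads, which gave the totals. The precision of low genes is limited by these reads, and 2 libraries per group limit all tests. The study describes the wild types as littermate controls, but which libraries share a litter is not given in the sources used here, so p-values measure the spread between these libraries.

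The 15627 genes averaging 0.05 RPKM or more were fitted with limma 3.58.1 (R 4.3.3), 1 mean per group over all 8 libraries, a trend in the prior, two-sided p-values and Benjamini-Hochberg adjustment over all genes at 0.05, for 6 contrasts. Fold changes are on the log2 RPKM scale with no pseudocount. Single factors were also compared between stages by exact permutation of 4 against 4 libraries. From each list the text names up to 3 called genes with the largest difference, otherwise the 2 most abundant. *Sftpc*, *Abca3*, the differences of *Cdh1* and *Esrp1* and the pattern of single libraries were chosen after their values were seen. The factors and lists were chosen with earlier results of these data known. Exons and positions come from GENCODE M21 and the deposited coordinates (mm10), upstream sequences from RefSeq. Alternatives were pseudocounts of 0.1 and 1 RPKM, no filter or 0.5 RPKM, median, quantile and pan-epithelial centring, other priors, voom, a replicate block, an adjusted p under 0.1, 1 stage or genotype alone and each library left out. Python 3.11.15, pandas 2.3.3, scipy 1.17.1 and matplotlib 3.10.9 were used.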

Additional observations from a re-analysis of the deposited data

How the results depend on the processing

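The count of factors called between genotypes stayed at 0, at both stages and for the interaction, under every alternative run. These fits called almost no genes of any kind, so the constant 0 says little about the factors. Without a filter 0.0847% of all genes were called at E18.5, 0.0809% at P1.5 and 0% for the interaction. Median centring, quantile normalization and voom called 0 of all genes in these contrasts. The count of factors called between stages did change with the setting. Averaged over genotypes 2 factors were called (with 5.14% of all genes), and the count was 0 without a filter (1.65%), 4 among genes averaging 0.5 RPKM or more (17.9%), 1 with median centring (11.8%), 1 without a trend in the prior (3.37%), 5 at an adjusted p under 0.1 (31.7%) and 0 without both P1.5 replicate 1 libraries (0.314%; an alternative chosen after seeing the data). Leaving out 1 library gave 0 to 7 (0.179% to 45.6%), the 7 without P1.5 *Wfdc2* +/+ replicate 2. In *Wfdc2* GFP/GFP 2 were called (4.55%), and the count was 1 on log2(RPKM + 1) (1.52%), 0 without a filter (1.34%), 1 with median centring (8.18%), 4 with pan-epithelial centring (10.8%), 1 without a trend (3.47%), 4 at an adjusted p under 0.1 (25.7%), 0 by voom (0.825%), 0 without both P1.5 replicate 1 libraries (0.198%) and 0 to 5 with 1 library left out (0% to 31.2%). In *Wfdc2* +/+ the count was 0 (0.0576%), and 0 to 2 with 1 library left out (0% to 13.9%). With the replicate number as a block, 0 were called in *Wfdc2* GFP/GFP (0.8%; adjusted p = 0.0608 for *Sox9* and 0.0561 for *Foxa1*) and 2 averaged over genotypes (1.84%); the numbers go with sex, but no label ties a number to a shared litter, and deviations of same-numbered libraries correlated at 0.23 at E18.5 and 0.21 at P1.5 across genotypes but at -0.02 and -0.01 across stages. Quantile normalization raised the count to 3 averaged over genotypes (8.18%) and to 3 in *Wfdc2* GFP/GFP (4.52%). Fitting that genotype alone also gave 3 (19.4%). The causes of these changes were not tested.

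Several values that no test called changed sign. With median centring the stage difference became 0.36 for *Cebpa* averaged over genotypes, 0.16 in *Wfdc2* +/+ and 0.56 in *Wfdc2* GFP/GFP, 0.16 for *Elf5* averaged and 0.48 in *Wfdc2* GFP/GFP, and 0.031 for *Id2* in *Wfdc2* GFP/GFP, the genotype difference -0.12 for *Foxa1* and -0.17 for *Gata6* at E18.5 and 0.19 for *Id2* at P1.5, and the interaction 0.41 for *Cebpa* and 0.35 for *Etv5*. With quantile normalization they were 0.16 for *Elf5* between stages in *Wfdc2* GFP/GFP, -0.0020 for *Foxa1* and -0.18 for *Gata6* at E18.5, and 0.10 for *Etv5* in the interaction. With pan-epithelial centring the genotype difference at P1.5 was -0.19 for *Elf5*, -0.60 for *Etv5* and -0.60 for *Foxa2*, the interaction -0.61 for *Elf5*, -0.54 for *Foxa2* and -0.41 for *Id2*, and *Foxa2* between stages in *Wfdc2* GFP/GFP -0.24. Voom put *Id2* at P1.5 at 0.0051. Without both P1.5 replicate 1 libraries *Cebpa* was at 0.17 averaged and 0.40 in *Wfdc2* +/+, *Gata6* at 0.076 and *Nkx2-1* at 0.057 in *Wfdc2* +/+, *Id2* at 0.12 in *Wfdc2* GFP/GFP, and at P1.5 *Etv5* at -0.42 and *Id2* at 0.0023. With 1 library left out, the genotype difference at E18.5 ran from -0.70 to 0.20 for *Cebpa*, from -0.18 to 0.62 for *Etv5*, from -0.00078 to 0.19 for *Foxa1*, from -0.35 to 0.058 for *Foxa2*, from -0.15 to 0.22 for *Gata6*, that at P1.5 ran from -0.76 to 0.25 for *Cebpa*, from -0.49 to 0.81 for *Etv5*, from -0.33 to 0.64 for *Foxa2*, from -0.78 to 0.76 for *Id2*, from -0.72 to 0.14 for *Nkx2-1*, from -0.80 to 0.14 for *Sox9*, the interaction ran from -0.51 to 0.50 for *Cebpa*, from -0.71 to 0.59 for *Etv5*, from -0.18 to 0.78 for *Foxa2*, from -0.33 to 1.20 for *Id2*. Likewise the stage difference in *Wfdc2* +/+ ran from -0.62 to 0.40 for *Cebpa*, from -0.91 to 0.076 for *Gata6*, from -0.60 to 0.057 for *Nkx2-1*, that in *Wfdc2* GFP/GFP ran from -0.56 to 0.34 for *Cebpa*, from -1.41 to 0.12 for *Id2*, that averaged over genotypes ran from -0.36 to 0.15 for *Cebpa*.

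Across all genes, the number called averaged over genotypes (803) was 428 without a filter, 1684 at 0.5 RPKM, 1842 with median centring, 1278 with quantile normalization, 430 with pan-epithelial centring, 461 on log2(RPKM + 1), 527 without a trend, 287 with the block and 28 to 7125 with 1 library left out. The split of higher to lower calls moved from 403 and 400 to 1278 and 564 with median centring and to 115 and 315 with pan-epithelial centring.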

Other observations

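Markers of other tissues were read in the same lungs. The liver markers (5 genes) summed to 0.502 to 0.709 RPKM at E18.5, to 4.28 and 13.1 in P1.5 *Wfdc2* +/+ and to 1.77 and 1.53 in P1.5 *Wfdc2* GFP/GFP, and *Apoa1*, an apolipoprotein, was at 4.46 between stages (SE 0.57; limma, adjusted p = 0.0149) and *Apoa2*, another, at 1.69 (SE 0.38; limma, adjusted p = 0.0493). These were the 2 of 5 called, beside 2.58% of all genes called higher. Erythroid markers (4 genes, led by *Hba-a1* and its near-identical copy *Hba-a2*) summed to 291 RPKM in E18.5 *Wfdc2* GFP/GFP replicate 1 and to 976 to 2617 in the other 7 libraries. *Tagln*, a smooth muscle gene, rose by 1.76 on the log2 scale at P1.5 (SE 0.32; limma, adjusted p = 0.0348), the only 1 of 5 smooth muscle markers called, beside 2.58% of all genes called higher, and of 7 endothelial markers, which summed to 13.3 to 41.4 RPKM, limma called 0, with 2 under an unadjusted p of 0.05, where 39% of all genes were, and the most abundant, *Tie1* and *Cdh5*, were at -0.33 (SE 0.34) and -1.09 (SE 0.48).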
